A study of Mus musculus with 8 samples.

Results

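Liver RNA of mice lacking Cpeb4 was compared with that of wild-type mice in the earlier-dated of the 2 gene expression tables of a series. It lists 21201 of the 24375 genes found in either table, and every gene it lists is described here. The series holds 8 libraries, 2 for each genotype and preparation. One preparation is total RNA of flash-frozen livers, and the other is RNA of endoplasmic reticulum (ER) purified from whole livers. The ER came from mice fasted overnight, and the labels give no feeding state for the total RNA and no allele, sex or age. Neither the labels nor the headers used here tie the table to one of the 2 preparations, so it is called liver-derived RNA. The table rests on 4 libraries, 2 of each genotype. No label states that the 2 libraries of 1 genotype are from different animals. The p-values therefore reflect how libraries vary, which may be technical.

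Cpeb4 belongs to the cytoplasmic polyadenylation element binding proteins. They bind U-rich elements near the end of an mRNA and change the length of its poly(A) tail, and with it translation and stability. In the fasted liver, glucagon, cyclic AMP and glucocorticoids raise transcripts that make glucose and break down amino acids, while insulin raises those of fat synthesis after a meal. Purified ER is enriched in mRNAs translated at its membrane.

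The table gives 1 row per gene and no columns for libraries, but the whole reads of each library could be worked out from the deposited means for 21187 of the 21201 genes. A level below is the reads of a gene divided by the size factor of the library, which corrects for depth. Reads in genes came to 53.4 M and 25.3 M in the knockout libraries and to 26.6 M and 26.2 M (M, 1e6 reads) in the wild-type libraries. Paired levels are given with the deeper library of a genotype first. The deeper knockout library stood apart from the other 3 on the first principal component (40.7% of the variance over 9649 genes). On it the knockout libraries lay at 0.85 and -0.16 and the wild-type ones at -0.44 and -0.25, so the genotypes were only narrowly apart, and on components 2 and 3 they overlapped. The SD of the log2 difference between libraries was 0.289 for the knockout pair, 0.241 for the wild-type pair and 0.245 to 0.297 across genotypes. Summed hepatocyte markers took 30086 to 36847 of 1e6 reads, against 243 to 340 for Kupffer cell markers, 368 to 616 for erythroid markers and 11.2 to 18.5 for lymphocyte and neutrophil markers. Among genes with worked-out reads, which leave out 14 genes with very high means such as Bhmt, Alb and Apoe, the highest levels per length were those of Fabp1, Apoa2 and major urinary protein genes. The Y-linked genes Ddx3y, Eif2s3y, Kdm5d and Uty had levels of 211 or more in every library.

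Cpeb4 (ENSMUSG00000020300, GRCm38 chromosome 11, 31872211 to 31935634, plus strand) had levels of 193 and 225 in the knockout libraries and 689 and 634 in the wild-type libraries. The knockout libraries kept 31.6% of the wild-type level, and the genotypes did not overlap. In the authors' deposited table the log2 fold change was -1.10 ± 0.13 (SE), with an adjusted p of 2.30e-12. Deposited fold changes are drawn towards 0 by the model, and the ratio of the mean levels gives -1.66 on the log2 scale. Which side of the comparison is the knockout was read from this gene, so its direction is no check of the labels. The tested genes next to it on the chromosome did not pass. D630024D03Rik, Bod1 and Erlec1 before it and Snrnp25, Rhbdf1 and Nprl3 after it each had an adjusted p of 0.999 in the authors' deposited table. D630024D03Rik (mean 54.8) had levels of 38.3 and 42.9 against 78.2 and 59.6, lower without overlap. Rhbdf1 and Nprl3 were also lower without overlap and Erlec1 higher, while Bod1 and Snrnp25 overlapped.

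The other family members differed from one another. Cpeb2 rose, with levels of 874 and 1215 in the knockout and 588 and 459 in the wild type, a ratio of 2 (authors' deposited table: log2 fold change 0.65 ± 0.13, adjusted p = 0.00139). Cpeb3 had 247 and 284 against 175 and 175, also without overlap, but an adjusted p of 0.786 in the authors' deposited table. Cpeb1 had 911 and 943 against 969 and 870, and its libraries overlapped. Tob1 encodes an adaptor that brings the CCR4-NOT deadenylase to CPEB-bound mRNAs. It rose from 1203 and 1030 in the wild type to 1614 and 1824 in the knockout (0.47 ± 0.12, adjusted p = 0.044 in the authors' deposited table). Its relatives Btg1 (2939 and 2442 against 2425 and 2072) and Btg2 (390 and 288 against 293 and 185) did not pass, and Btg2 overlapped. Of 29 tested genes of the CPEB family and of poly(A) tail enzymes, 2 were called higher and 1, Cpeb4, lower. Among catalytic subunits of the tail machinery, the deadenylase Parn had 1040 and 915 against 1019 and 929, and the poly(A) polymerase Papola 2638 and 3015 against 2716 and 2567, both with overlap. Of the 29 genes, 20 were above 0. Libraries did not overlap for 9 with knockout above and 5 with knockout below, beside 18.4% and 20.4% of all tested genes. The shallower knockout library was highest for 15 of the 29 and the shallower wild-type library lowest for 15. The list's median log2 fold change was 0.03, beside 0.00 over all tested genes.

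Called genes are those with an adjusted p under 0.05 in the authors' deposited table, and 31 of 11661 tested genes were called (0.266%). Of these, 19 were higher in the knockout (0.163%) and 12 lower (0.103%). Deposited fold changes, which the model draws towards 0 (prior SD of 0.2005 on the log2 scale), were small across the table. Of tested genes, 90% lay between -0.19 and 0.19 on the log2 scale, 27 were beyond 0.5, and 50.3% were above 0. These values do not give the size of changes before shrinkage. Fmn2, for example, had a ratio of mean levels of 3.48 and a deposited value of 0.75. All 31 called genes had libraries that did not overlap between genotypes, and so did 18.4% of all tested genes with knockout above wild type and 20.4% with knockout below. Calls were more frequent at high means, with 9 of 551 genes at a mean of 10000 or more (1.63%) and 4 of 3461 under 200 (0.116%). By biotype, 30 were protein coding and 1 antisense, and none of 150 long intergenic RNAs or 772 pseudogenes was called.

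**Figure D1:**
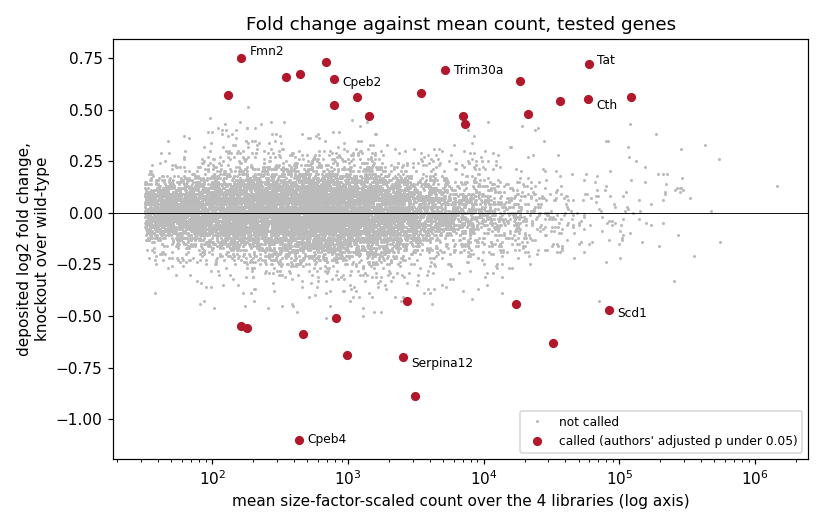
Deposited log2 fold change of knockout over wild-type (vertical axis) against the mean size-factor-scaled count of the 4 libraries (horizontal log axis) for the 11661 tested genes, each point 1 gene. The 31 called genes (red) lie beyond 0.43 in size, with Cpeb4 lowest at -1.10 and Fmn2 highest at 0.75.

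The calls rested on all 4 libraries. The genotypes did not overlap for any called gene, so leaving out a library could not reverse a direction. When the authors' model was refitted to the worked-out reads, it called the same 31 genes. That is no independent check, because the dispersions used were those that return the deposited standard errors. Without the deeper knockout library 6 genes were called, without the shallower knockout library 30, without the deeper wild-type library 21 and without the shallower wild-type library 7. All 31 genes kept their direction each time, and 3 of them, Cpeb4 and Serpina12 among them, stayed called in all 4 refits. The other 28 lost the call in at least 1 refit, and Bst2, Gm15890, Gm43302, Gstt1, Nkain2, Slc25a25 and Tob1 in all 4. With limma on log2(level + 0.5), which estimates the spread from these libraries without the authors' dispersions, 0 genes passed and 797 had an unadjusted p under 0.05, beside 479 in the authors' deposited table.

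**Figure D2:**
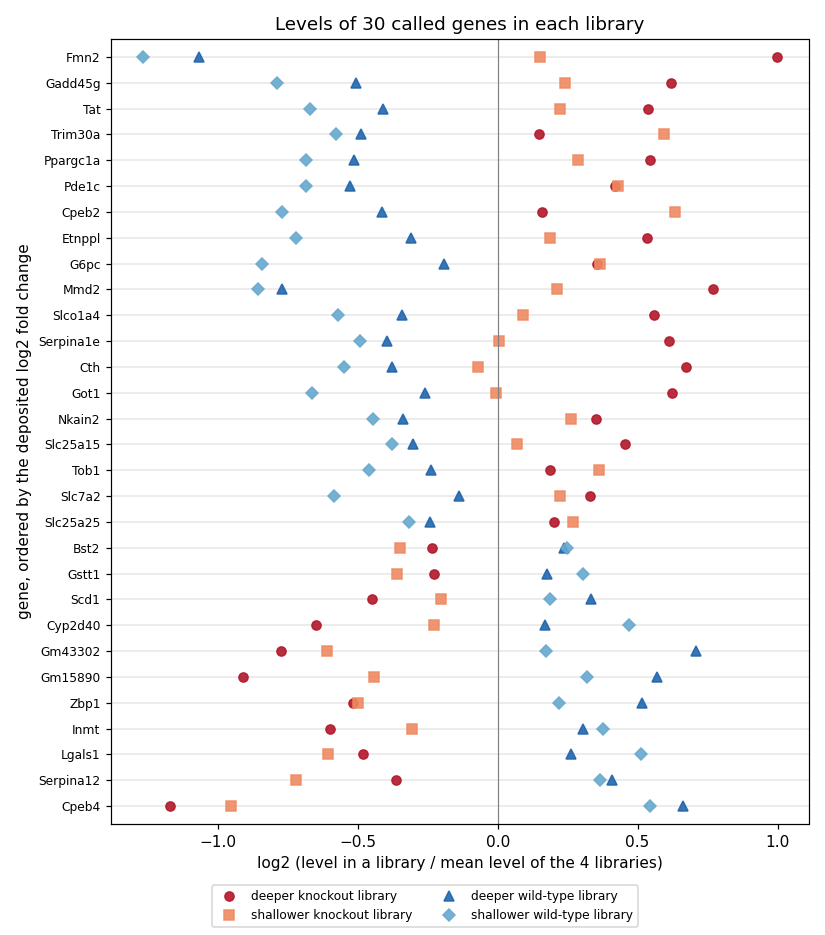
Level of 30 called genes in each library as the log2 ratio to the mean of the 4 libraries (horizontal axis), 1 gene per row, ordered by the deposited fold change. Knockout libraries (red, orange) and wild-type libraries (dark and light blue) do not overlap in any row, and the deeper knockout library is the highest point for 13 of the 19 genes called higher.

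Several transcripts of the fasting response rose in the knockout. Tat, the tyrosine aminotransferase induced by fasting and glucocorticoids, had levels of 86240 and 69287 in the knockout and 44725 and 37282 in the wild type. It was 1.9 times as high, and even the lower knockout library exceeded the higher wild-type one by a wide margin (authors' deposited table: 0.72 ± 0.12, adjusted p = 5.31e-06). Its call was lost without the deeper knockout library (adjusted p = 0.0654 in the refitted model). Ppargc1a encodes PGC-1alpha, the coactivator of gluconeogenic and mitochondrial genes. Its levels were 646 and 540 against 310 and 275 (0.67 ± 0.13, adjusted p = 0.000667 in the authors' deposited table). G6pc encodes the phosphatase of the last step of glucose release and had 4398 and 4439 against 3014 and 1921. The knockout libraries were alike and the wild-type ones were not (0.58 ± 0.13, adjusted p = 0.00614 in the authors' deposited table), and without the shallower wild-type library the adjusted p of the refit was 1. Got1, the cytosolic aspartate aminotransferase, had 56445 and 36525 against 30612 and 23121. Slc25a25, an ATP-magnesium carrier of the inner mitochondrial membrane, had 8364 and 8757 against 6144 and 5840, the smallest called change (0.43 ± 0.11 in the authors' deposited table).

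Of the 31 tested members of the gluconeogenesis and fasting list, 5 were called higher and 1 lower, 19 were above 0, and the median was 0.09. Over all tested genes 0.163% were called higher, 0.103% lower and 50.3% were above 0. These shares are the background for the lists that follow as well. All lists were chosen with earlier results of these data known. The shallower wild-type library was lowest for 15 of the 31 and the deeper knockout library highest for 13, and without the former the limma median was 0.03, against 0.11 with all 4. Enzymes between pyruvate and glucose did not all move with G6pc. Pck1, the cytosolic carboxykinase, had 151596 and 193086 against 170620 and 102654, so its libraries overlapped. Its levels are above 100000, where the split of reads over libraries is less certain. Fbp1 had 90304 and 76319 against 76764 and 72903, and Pcx, pyruvate carboxylase, was below the wild type at 28998 and 25153 against 32009 and 30808. None of these 3 passed. The immediate early receptor gene Nr4a1, which cyclic AMP induces, had 91.2 and 50.1 against 27.6 and 20.3 without passing (adjusted p = 0.401 in the authors' deposited table). Igfbp1, an insulin-repressed and fasting-induced binding protein, had 713 and 271 against 213 and 159. Its deeper knockout library was far above the other 3, and its fold change was 0.19 ± 0.10 in the authors' deposited table.

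The list of amino acid breakdown enzymes gave 4 called genes, all higher. Besides Tat and Got1 it held Etnppl, the lyase of phosphoethanolamine, a substrate that is not itself an amino acid. Etnppl had 26784 and 21040 against 14905 and 11206 (0.64 ± 0.12, adjusted p = 0.000262 in the authors' deposited table). Cth, the cystathionine gamma-lyase that makes cysteine, had 93095 and 55587 against 44897 and 39878 (0.55 ± 0.13, adjusted p = 0.0191 in the authors' deposited table). For Cth and Got1 the deeper knockout library stood well above the shallower one. Of 41 tested members, 4 were called higher and 0 lower, 31 were above 0, and the median was 0.12. Glycine decarboxylase Gldc (14711 and 11274 against 9613 and 7602) and the lysine enzyme Aass (35944 and 24263 against 20754 and 19939) did not overlap and did not pass. Of the 39 members with worked-out reads, 31 had their highest level in the deeper knockout library, as did 26.8% of all tested genes. Without that library the list's limma median was -0.05, against 0.11 with all 4.

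The urea cycle disposes of the nitrogen those enzymes release. Slc25a15, the ornithine carrier of mitochondria, rose, with 29264 and 22364 against 17269 and 16410 (0.48 ± 0.12, adjusted p = 0.0238 in the authors' deposited table). Carbamoyl phosphate synthetase Cps1 had 170841 and 114722 against 101924 and 87571, argininosuccinate lyase Asl 113011 and 72824 against 71065 and 60401, and arginase Arg1 238799 and 197872 against 171973 and 140253. These 3 did not overlap and did not pass. Cps1 and Arg1 have means above 100000, where the split of reads over libraries is less certain. Otc, the mitochondrial enzyme between them, had 35068 and 32574 against 32904 and 31697. The 11 tested genes had a median of 0.21, with 9 above 0. Of the 10 with worked-out reads, 5 were highest in the deeper knockout library and 6 lowest in the shallower wild-type one, and the limma median stayed between 0.17 and 0.21 without each library in turn. Slc7a2, a carrier of arginine and other cationic amino acids, rose to 8823 and 8185 from 6370 and 4679 (0.47 ± 0.12, adjusted p = 0.044 in the authors' deposited table). It was the 1 called gene of 18 amino acid transporters of the plasma membrane, and 13 of them were above 0.

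Glucocorticoid receptor targets gave 3 called genes of 20, all higher. Gadd45g, a growth arrest gene, had 1049 and 806 against 481 and 395 (0.73 ± 0.13, adjusted p = 6.90e-05 in the authors' deposited table). Slco1a4, an organic anion transporter, had 1719 and 1242 against 919 and 785 (0.56 ± 0.13, adjusted p = 0.0146 in the authors' deposited table). Tat was the third. Of the 20 tested targets, 17 were above 0 and 3 below, with a median of 0.11. Libraries did not overlap for 7 with knockout above and 0 with knockout below, beside 18.4% and 20.4% of all tested genes. Some classic targets did not follow: Fkbp5 had 6126 and 4971 against 7582 and 5582, and Per1 562 and 579 against 759 and 427, both with overlap. The metallothioneins Mt1 (46314 and 17661 against 35285 and 26302) and Mt2 (33416 and 12613 against 25406 and 17992) were high in the deeper library of each genotype and low in the other. Of the 20 targets, 14 were highest in the deeper knockout library and 15 lowest in the shallower wild-type library. Their median in the limma fit was 0.27, and it was 0.03 without the former and 0.02 without the latter.

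Hepatocytes near the portal vein carry most gluconeogenesis and urea synthesis. Of 19 tested portal markers, 2 were called higher (G6pc and Etnppl), 16 were above 0, and the median was 0.19. The portal list also moved with the libraries: 11 of 18 members were highest in the deeper knockout library and 13 lowest in the shallower wild-type one, and the limma median fell from 0.31 to 0.04 without the latter. Central vein markers had 13 of 18 below 0 and a median of -0.11, with none called. Of these 18, 12 were highest in the shallower wild-type library, and without it the limma median was -0.02, against -0.16 with all 4. Cyp2a5 came nearest, at 6709 and 6795 against 8872 and 10539 (adjusted p = 0.058 in the authors' deposited table). Glul, the glutamine synthetase of the cells next to the central vein, did not follow, with 36881 and 41935 against 34577 and 36055. Cyp2e1 had 95869 and 97782 against 99075 and 109298. In bulk RNA a change in the share of cells and a change in RNA per cell cannot be told apart.

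**Figure D3:**
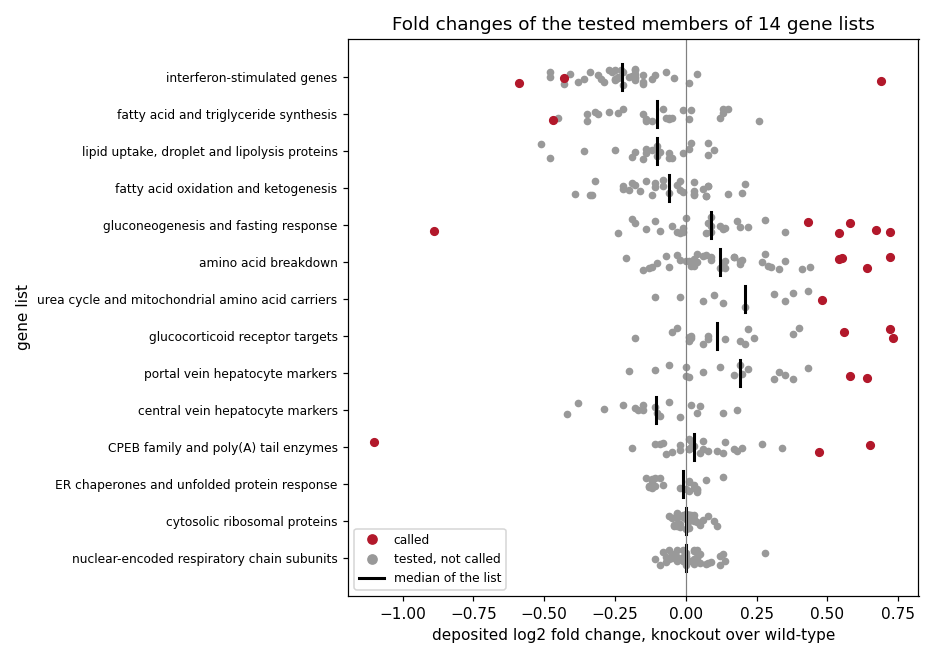
Deposited log2 fold changes (horizontal axis) of the tested members of 14 gene lists, 1 point per gene, with called genes in red and a black bar at each list's median. Medians run from -0.23 for interferon-stimulated genes to 0.21 for the urea cycle list, and those of ribosomal proteins and respiratory chain subunits lie at 0.00.

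Among transcripts of fat synthesis 1 fell. Scd1, the stearoyl-CoA desaturase that makes monounsaturated fatty acids, had 61865 and 73271 in the knockout and 106382 and 96021 in the wild type. It fell to 66.8% of the wild-type level without overlap, though the call was lost in 3 of the 4 refits without a library (-0.47 ± 0.11, adjusted p = 0.0166 in the authors' deposited table). It was the 1 called gene of 26 tested genes of fatty acid and triglyceride synthesis, of which 19 were below 0 (median -0.10). Libraries did not overlap for 12 members with knockout below and 1 with knockout above, beside 20.4% and 18.4% of all tested genes. Among the 12 were Fasn, fatty acid synthase (1575 and 1551 against 1871 and 2478), Srebf1, the transcription factor SREBP1 (598 and 813 against 960 and 982), Mlxipl, the carbohydrate-response factor ChREBP (1263 and 1356 against 1656 and 1781), and Dgat2, which forms triglyceride (6607 and 6921 against 8120 and 8438). Acly, which makes cytosolic acetyl-CoA, was the member above, at 3928 and 3728 against 3277 and 2833.

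Genes of lipid uptake and droplets lay on the same side, with 18 of 23 below 0 (median -0.10) and none called. The fatty acid receptor Cd36 had 449 and 553 against 695 and 1069 (adjusted p = 0.0665), and the droplet protein gene Cidec 955 and 1310 against 1429 and 2500 (adjusted p = 0.138, both in the authors' deposited table). Plin2, the main droplet coat protein of hepatocytes, had 38151 and 39246 against 34366 and 43376. Fatty acid oxidation and ketogenesis had 21 of 33 below 0 (median -0.06) and none called. In that list the carnitine transferase Cpt1a had 14703 and 15797 against 13825 and 14986. In these lists the shallower wild-type library was most often highest, for 13 of 26, 15 of 23 and 23 of 33 members, beside 24.4% of all tested genes. Without it the limma medians were -0.16, -0.10 and -0.02, and with all libraries -0.17, -0.14 and -0.07.

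Most interferon-stimulated genes lay below the wild type. Of 40 tested, 37 were below 0 and the median was -0.23, with 2 called lower and 1 called higher. Zbp1, a sensor of Z-form nucleic acids, had 323 and 327 against 660 and 538 (-0.59 ± 0.13, adjusted p = 0.00744 in the authors' deposited table). Bst2, the membrane protein tetherin, had 2310 and 2130 against 3204 and 3222 (-0.43 ± 0.11, adjusted p = 0.044 in the authors' deposited table). The knockout libraries of Zbp1 and both pairs of Bst2 were close to each other. Without each library in turn, Zbp1 lost its call in 3 of 4 refits (highest adjusted p = 0.444) and Bst2 in 4 of 4 (highest adjusted p = 0.466). Trim30a, a tripartite motif protein of the same response, went the other way, at 5780 and 7884 against 3725 and 3498 (0.69 ± 0.12, adjusted p = 4.11e-05 in the authors' deposited table). Its call was lost without the shallower knockout library (adjusted p = 0.135 in the refit).

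Of the interferon genes that did not pass, Irf7 had 2002 and 1976 against 3229 and 2602, Isg15 1515 and 1132 against 2635 and 1755, and Oas1a 305 and 317 against 627 and 438. The signal transducer Stat2 (1275 and 1261 against 1611 and 1521) and its partner Irf9 (1697 and 1820 against 2417 and 1871) also had libraries without overlap. The sensor gene Ddx58 had 1082 and 1007 against 1121 and 898 and did overlap. The list had its highest level in the deeper wild-type library for 35 of 40 members, beside 20.7% of all tested genes, and in no member in the deeper knockout library. Without that wild-type library its limma median was -0.17, against -0.35 with all 4. Interferon-induced GTPases and MHC class I genes had 15 of 19 below 0 (median -0.10), none called, and 16 of 19 highest in the deeper wild-type library. Kupffer and macrophage markers were below 0 for 18 of 21 (median -0.10), but they peaked in another library than the interferon genes, with 15 of 21 highest in the shallower wild-type library and 2 in the deeper one. The Kupffer marker Clec4f had 1346 and 1174 against 1312 and 1391. Erythroid markers had 5 of 6 below 0 (median -0.37), with all 6 highest in the deeper wild-type library, as most interferon genes were, and Hba-a1 at 2397 and 1897 against 3526 and 2840. The part of these markers in the result was not tested.

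**Figure D4:**
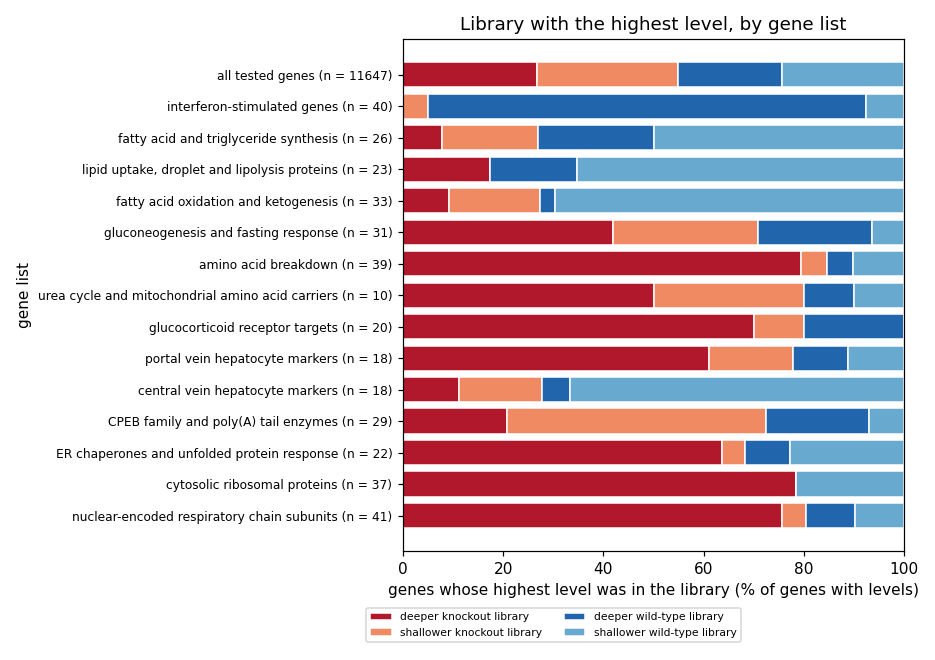
Share of genes (horizontal axis, %) whose highest level among the 4 libraries was in each library, for all tested genes and 14 gene lists, with red and orange for knockout and blue shades for wild-type libraries. Interferon-stimulated genes peaked in the deeper wild-type library (35 of 40), amino acid breakdown in the deeper knockout library (31 of 39) and fatty acid oxidation in the shallower wild-type library (23 of 33).

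The promoters of 22 called genes were read from RefSeq (GRCm38.p6), from 250 bases before to 50 after each transcript start, with all 32851 promoters of that table as background. Interferon-stimulated response elements were searched on both strands as 2 copies of GAAA with any 2 bases between them. They occurred in 2 of 6 genes called lower (Bst2 and Gstt1), in 2 of 16 called higher (Trim30a and Slc25a15) and in 3.44% of all promoters. Here and below, a called gene counts if any of its promoters matched, and the 22 genes had 29 promoters. The percentages of all are per promoter, so the shares are not in like units. The full cyclic AMP response element TGACGTCA, searched on both strands, was found in 1 promoter of Slc25a25 and in 1.79% of all. Its shorter core TGACG, which overlaps the full element, was in Ppargc1a, Slc25a25 and Tob1 and in 20.8% of all. TATAAA on the gene strand was in G6pc, Gadd45g, Tob1 and Inmt and in 8.32% of all. Promoters of 3 genes are printed to show where these letters stand, with the response elements in capitals. For Bst2 and Trim30a, which moved in opposite directions, the capitals mark the interferon element (on the opposite strand in Trim30a), and for Slc25a25 the cyclic AMP element.
Bst2, chr8:71537423-71537722, minus strand: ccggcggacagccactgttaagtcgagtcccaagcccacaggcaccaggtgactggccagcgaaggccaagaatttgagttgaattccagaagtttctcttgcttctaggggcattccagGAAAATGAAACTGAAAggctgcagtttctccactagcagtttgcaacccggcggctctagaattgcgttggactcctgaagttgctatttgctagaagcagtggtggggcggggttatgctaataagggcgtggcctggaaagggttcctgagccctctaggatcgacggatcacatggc
Trim30a, chr7:104465144-104465443, minus strand: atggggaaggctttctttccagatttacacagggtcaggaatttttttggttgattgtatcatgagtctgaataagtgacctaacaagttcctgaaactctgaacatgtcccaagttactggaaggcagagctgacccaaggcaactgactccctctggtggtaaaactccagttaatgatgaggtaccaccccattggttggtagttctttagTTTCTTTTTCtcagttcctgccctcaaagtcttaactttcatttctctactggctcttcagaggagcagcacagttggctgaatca
Slc25a25, chr2:32424017-32424316, minus strand: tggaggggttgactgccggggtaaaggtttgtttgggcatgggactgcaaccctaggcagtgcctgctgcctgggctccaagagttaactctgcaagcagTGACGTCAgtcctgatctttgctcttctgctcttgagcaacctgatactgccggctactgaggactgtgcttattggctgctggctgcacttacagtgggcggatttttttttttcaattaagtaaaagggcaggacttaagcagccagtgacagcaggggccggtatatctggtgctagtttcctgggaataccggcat
A match describes the sequence and says nothing of binding in these livers.

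The remaining called genes belong to no single group. Serpina12, the secreted serpin vaspin, fell to 1980 and 1546 from 3380 and 3279 (-0.70 ± 0.12, adjusted p = 1.85e-05 in the authors' deposited table). Lgals1, which encodes galectin-1, had 699 and 641 against 1171 and 1393 (adjusted p = 5.82e-05 in the authors' deposited table), and Inmt, a methyltransferase of indolethylamines, 21599 and 26471 against 40387 and 42485 (adjusted p = 4.67e-05 there). These 3 were between 52.3% and 58% of the wild-type level. In each, libraries of a genotype lay closer together than the genotypes did. The glutathione transferase Gstt1 had 14863 and 13574 against 19690 and 21511, and the cytochrome P450 gene Cyp2d40 516 and 692 against 910 and 1122.

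Fmn2, a formin that nucleates actin filaments, showed the largest rise, with 327 and 182 against 78.2 and 68, a ratio of 3.48 (0.75 ± 0.14, adjusted p = 0.000129 in the authors' deposited table). Its knockout libraries differed from each other by more than its wild-type libraries did. Mmd2 had 221 and 150 against 75.9 and 71.5. Pde1c, a phosphodiesterase that degrades cyclic nucleotides, had 469 and 473 against 243 and 218 (adjusted p = 0.00101 in the authors' deposited table). Nkain2 had 997 and 939 against 619 and 575. Both genes were nearly equal in the knockout libraries.

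Serpina1e, an alpha-1-antitrypsin gene, had 186990 and 122855 against 93009 and 87031 (0.56 ± 0.13, adjusted p = 0.00699 in the authors' deposited table). Of its 31-base words 54.2% occur in other genes, and its means are above 100000, where the split of reads over libraries is less certain. Its near copies Serpina1a (166516 and 165911 against 183719 and 165495) and Serpina1b (156948 and 151175 against 167293 and 152594) were level between genotypes. Their levels lie in the same less certain range. The predicted genes Gm15890 (95.5 and 132 against 266 and 224) and Gm43302 (95.5 and 107 against 267 and 184) share 68.6% and 100% of their words with other genes, and Cyp2d40 27.6%. The values of these 4 called genes are uncertain for that reason.

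Lists of ER, ribosome and respiratory chain genes held no called gene. None of 22 ER chaperone and unfolded protein response genes was called, 10 were above 0, and the chaperone Hspa5 had 5823 and 3996 against 4750 and 4696. Cytosolic ribosomal proteins ran from -0.06 to 0.11 over 37 genes with a median of 0.00, and no member had separate genotypes. In the libraries themselves, 29 of the 37 were highest in the deeper knockout library and 27 lowest in the shallower knockout library. Nuclear-encoded respiratory chain subunits had 22 of 41 above 0 and a median of 0.00, with cytochrome c, Cycs, at 28200 and 23762 against 20252 and 20709 without passing.

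The threshold fell among genes of similar size. Just inside it lay Slc7a2, Bst2 and Cyp2d40 with adjusted p-values of 0.044, 0.044 and 0.0467 in the authors' deposited table. Just outside lay Cyp2a5 (0.058), the carbonic anhydrase Car3 (0.0654), Paqr7 (0.0654) and Cd36 (0.0665 in the authors' deposited table). Car3 had 51809 and 63762 against 88343 and 79435, and Paqr7 771 and 1166 against 1449 and 1818. Neither overlapped between genotypes, and absence from the calls does not show that they did not differ. Acsl4, an acyl-CoA synthetase of polyunsaturated fatty acids, had 1753 and 1533 against 1071 and 1134 on the higher side, and Fh1, fumarate hydratase, 25792 and 19625 against 15077 and 16041.

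Elements that CPEB proteins bind were looked for in 3′ UTRs. For 10376 tested genes the annotated 3′ UTR (GENCODE M21, GRCm38) was searched for TTTTAT or TTTTAAT on the transcript strand. At least 1 was found in 15 of 19 genes called higher (78.9%), 4 of 11 called lower (36.4%) and 59.9% of all. Cpeb2 held 24 in 3778 bases and Ppargc1a 9 in 3930 bases. Cpeb4, the gene knocked out, was counted among the 11 called lower, with an annotated UTR of 45 bases and no element. It also enters the values below for genes called lower. Bst2, Inmt, Lgals1 and Serpina12 were also among the genes called lower that held none, and Gadd45g, Mmd2, Pde1c and Serpina1e among those called higher. The UTRs differed in length as well, with medians of 1521 bases for genes called higher, 321 for genes called lower and 1000 for all, and the elements per kilobase were 1.81, 0.655 and 1.35. A polyadenylation signal (AATAAA or ATTAAA) with at most 40 bases after it was found in 18 of 19 genes called higher. It was found in 8 of 11 called lower and in 8189 of all 10376. An element within 100 bases before the last such signal occurred in 4 of 19 genes called higher, 1 of 11 called lower and 15.3% of all. Genes without a signal are included in these shares. The 4 of the genes called higher are shown in 30-base windows, 5′ to 3′ on the transcript strand in DNA letters, with the element in capitals.
G6pc, chr11:101377866-101377895, plus strand: acatgtgcagtaTTTTATtaaagcaacatt
Got1, chr19:43499775-43499804, minus strand: tagtctgttctgTTTTATttaaaaaataaa
Tat, chr8:109999727-109999756, plus strand: tattataagatcTTTTATtttgtcaagggt
Ppargc1a, chr5:51454330-51454359, minus strand: gtattgttgtggTTTTATtcattgtatgaa
The element stands 4 bases before the signal in G6pc, 12 in Got1, 44 in Tat and 70 in Ppargc1a, counted from the start of one to the start of the other.

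The same elements divided the table as a whole. Of 6217 tested genes with an element, 58.2% had a fold change above 0 (median 0.02), and of 4159 without, 34.9% (median -0.04). Genes with an element near the signal had 58% above 0, and the other genes with an element, some of them without a signal, 58.3%. The shift is small beside a median standard error of 0.128 for a single gene. Length went along with it: with UTRs ranked in 3 equal classes, 60.6% of genes in the longest class were above 0 and 38.2% in the shortest. Within the shortest, middle and longest classes, genes without an element stayed at 34.5%, 35.4% and 36.2%, and genes with one rose from 48.2% to 55.2% and 63.3%.

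Base composition went along with it more strongly. Genes with an element had a median UTR GC content of 42% and genes without one 48.4%. In the class of UTRs lowest in GC, again of 3, 71.8% of genes with an element and 53.1% of those without were above 0, and in the highest class 35.4% and 26%. The element, length and GC content thus moved together with the fold changes, and their separate parts were not tested. The libraries did not share the pattern evenly. Genes without an element lay at 0.00, -0.08, 0.02 and 0.05 (median log2 level relative to the gene's mean) in the deeper and shallower knockout and the deeper and shallower wild-type libraries. Genes with one lay at -0.02, 0.05, -0.01 and -0.02. The gap between both sets was thus widest in the shallower knockout library and had the opposite sign in the other 3.

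**Figure D5:**
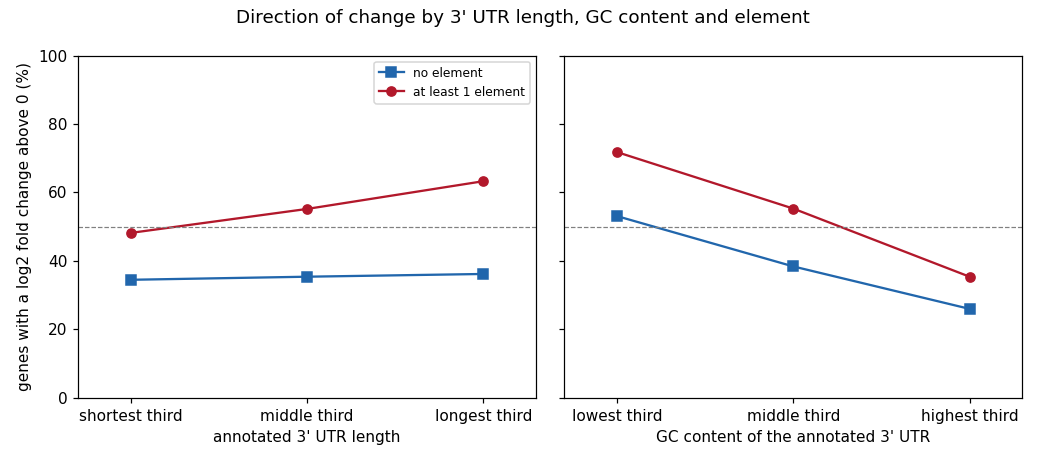
Share of tested genes with a deposited log2 fold change above 0 (vertical axis, %) by 3 equal classes of 3′ UTR length (left) and of UTR GC content (right), for genes with (red) and without (blue) a CPEB-binding element, and a dashed line at 50%. Genes with an element are higher in each class, from 48.2% to 63.3% over length and from 71.8% down to 35.4% over GC content.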

How the data were processed

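RNA libraries were made from mouse liver RNA or purified liver ER. The submitters' processing notes name STAR 2.3.0e, DESeq2 1.6.3 and mm10, with no role for any. The counting, annotation and strand setting were not given in the sources used here. Each row that the authors deposited holds, per the file headers, a mean signal over libraries on a size-factor scale. It also holds a log2 fold change and its error. A Wald score, the p-value and an adjusted p-value follow in the deposited table. The deposited score equals the fold change over its error in all 21201 rows. Of these genes, 11661 had an adjusted p and were tested (mean of at least 31.9), and 9540 had none. Calls use the authors' test.

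The deposited means are sums of whole reads times 4 fixed steps, printed to 15 digits. An exhaustive search gave 1 combination of reads from the mean alone for 18272 genes. For 2915 more, the combination was chosen by refitting the authors' model (a normal prior with an SD of 0.2005 on the log2 scale) to the deposited fold change, and 14 genes with means of 111704 or more were not worked out. All 21187 gave back the deposited fold change within 1e-06, which for the 2915 follows from how their reads were chosen. With the fold change moved on purpose, 0 of 990 searches gave a combination for means of 10000 to 100000, and 10 of 112 (8.93%) above. The levels of the 42 genes with worked-out reads and means above 100000 are less certain for that reason. Sides came from the signs of single-read genes, and no library was tied to a sample. Levels of single genes are compared with one another only per length. The sums of marker lists are shares of reads, not corrected for length or for the number of genes in a list.

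Alternatives were limma 3.58.1 (R 4.3.3, trend, 11647 genes), other filters and thresholds, and, chosen after seeing the data, refits of the authors' model with dispersions kept. Code was tested on simulated data. Gene names and 3′ UTRs came from GENCODE M21 (GRCm38, the assembly that mm10 names), with 21080 identifiers matched. The members and the 43 gene lists were chosen with earlier results of these data known. Named genes are the called genes, those next to the threshold, the CPEB family and, per list, called members and those with the largest statistics; further list members, among them those shown because they did not move with their group, were chosen after their values were seen. Of the 31 called genes, 1 is not reported here.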

Additional observations from a re-analysis of the deposited data

How the results depend on the processing

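No paired analysis was possible because the libraries behind the table could not be tied to replicate numbers. Beside the 31 calls as deposited (19 higher, 12 lower), 26 genes were called with no filter on low means, 24 of them among the 31. Totals were 32 at a mean of at least 100, 27 without genes sharing sequence and 31 after centring. At a threshold of 0.1, 43 passed, 20 of them lower. With limma, 0 genes passed at pseudocounts of 0.5, 1 and 2, with upper-quartile scaling and with no filter, in either direction or among list members, and 797, 794, 791, 799 and 1225 had an unadjusted p under 0.05. Leaving out each library in turn, where a lone library is assumed to vary like the others, limma called 4 to 40 genes (1 to 18 higher, 3 to 22 lower), the fewest without the deeper knockout and the most without the shallower knockout library, and the refitted model 6 to 30 (2 to 17 higher, 4 to 13 lower). List members called numbered 24 as deposited, 3 to 13 in these limma fits and 5 to 19 in the refits, not all of them among the 24. A nearly flat prior gave 31 calls. All 31 genes kept their direction in every setting that tested them. Where only the filter or threshold changed, the fold changes were the deposited ones. Without a library, genotypes that did not overlap fixed the direction in advance. The cause of lost calls was not tested. The sign of the median changed in some setting for 22 of 43 lists. The median deposited standard error was 0.137 under a mean of 200 and 0.111 at 10000 or more. The prior shrinks these errors too, as for the untested gene Stc2 (mean 2.08, error 0.04). They therefore do not show how far depth limits low genes.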

Other observations

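Some genes differed most between libraries of the same genotype. The genes below were chosen after their values were seen. Among 8186 tested genes with a mean of at least 200, 72 differed by over 0.5 on the log2 scale within both genotypes. Of these, 10 were higher in the deeper library of each genotype. They included the acute phase genes Saa1 (1452 and 598 in the knockout, 1253 and 641 in the wild type), Saa2 (587 and 306, 729 and 345) and Lcn2 (547 and 150, 409 and 180), and the cell cycle inhibitor Cdkn1a (1834 and 903, 1685 and 837). A further 8 were lower in both deeper libraries, such as Acot3, a peroxisomal thioesterase (438 and 1681, 2014 and 4373). The other 54 had opposite signs, so that the deeper knockout library lay with the shallower wild-type one. Cep85 had 29279 and 11758 in the knockout and 2003 and 15787 in the wild type, so 1 wild-type library lay far below the other 3. The carboxylesterase gene Ces1b had 5401 and 1601 against 1787 and 6723, and Wdfy1 566 and 1094 against 1076 and 552. Across the 8186 genes the 2 within-genotype differences had a Pearson r of -0.26 (genes are not independent replicates, and the 2 differences share no library). None of the genes named here was called between genotypes.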
